A study of Mus musculus with 16 samples.

Results

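Short regions inside gene bodies were the stretches under 5000 bp that carried an H3K27me3 peak in at least 1 of 8 deposited peak lists and lay in the interior of a protein-coding gene. Overlapping peaks of the 8 lists were merged into 61441 regions, and 10823 of them met the rule: wholly inside a RefSeq protein-coding gene of the mm10 mouse genome and more than 2 kb from both ends of every such gene. The rule used 13 autosomes and left out chromosomes 2, 8, 10, 12, 15 and 17. The rule used position and length only, not the strength of a peak or the group of a library. The median length was 543 bp, with quartiles of 295 and 1030 bp. The regions nearest to the length limit were 4964 bp in Rbm20 and 4985 bp in Gna14 on the inside, and 5002 bp in Pdcd1lg2, 5007 bp in Gckr and 5045 bp in Cep126 on the outside.

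The cells were CCN6KOT, a mouse breast tumour line labelled spindle metaplastic. Both groups derived from tumours lacking CCN6 (also called WISP3), so no group with intact CCN6 entered any comparison, and both passed through puromycin selection. The 4 control libraries, titled PPGS, came from cells given a control lentivirus in the growth protocol and called parental in the design text. The 4 dnTCF4 libraries came from cells given a lentivirus with a dominant-negative TCF4 construct, described by the submitters as acting on beta-catenin, in a study of how EZH2 shapes the epigenome of metaplastic tumours. The labels do not say whether the libraries of a group were separate cultures. The p-values therefore weigh a difference only against the variation among these libraries, which may be technical. A peak list holds neither expression nor read counts, so the identity of the cells could not be checked and the depth behind each list is unknown. The lists held between 191 peaks (dnTCF4 2) and 54070 peaks (control 3), and control 4 and dnTCF4 1 had lists of similar length, 22745 and 21492 peaks.

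H3K27me3 is the trimethylation of lysine 27 on histone H3, placed by Polycomb repressive complex 2 through its catalytic subunit EZH2. In mammalian cells the mark typically lies over the CpG-rich promoters of silent developmental genes and spreads from there, at lower density, over silent gene bodies and intergenic ground. Bodies of transcribed genes carry other histone marks instead, such as H3K36 methylation, which hinders the complex. Wnt signalling acts on genes through beta-catenin bound to TCF/LEF factors, and a dominant-negative TCF4 occupies those sites without recruiting beta-catenin.

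Few of the short intragenic regions covered an annotated internal start of transcription. RefSeq promoter windows (GRCm38.p6, 250 bases before to 50 bases after a transcription start) gave 3638 windows in gene interiors on 12 of the 13 chromosomes. Of the regions on these chromosomes, 51 of 10274 (0.496%) touched a window, a share that depends on how many windows there are. By window, 53 (1.46%) were touched, whereas 1.94% of all interior positions would place a window of the same length against a short intragenic region. By library the order was not the same: 1.29% of windows against 1.70% of positions in control 3 and 0.385% against 0.472% in control 4, but 0.577% against 0.470% in dnTCF4 1 and 0.0825% against 0.0553% in dnTCF4 3, the last from 3 windows. The other 4 libraries touched 0 windows. By CpG content, 4 of 742 windows (0.539%) with an observed over expected CpG ratio of at least 0.6 were touched, and 49 of 2896 (1.69%) below that ratio. The median CpG ratio was 0.205 in touched windows and 0.288 in the others, and the median GC content was 45% and 51.3%. The windows touched were therefore poorer in CpG than the untouched ones, as a description with no test. Starts of the host gene itself made up 36 of the touched windows, of 1952 in all, and starts of another gene 17 of 1686.

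The windows below were chosen after their values were seen. They are 4 starts touched by the most recurrent of these regions and the 2 touched windows with the highest CpG ratio. The last 2 are the untouched starts with the highest CpG ratio, 1 per gene, in genes with at least 10 short regions. Bases are lower case and read 5′ to 3′ on the strand of the gene, with CpG dinucleotides in capitals. Positions are on mm10 (GRCm38.p6).
1700019D03Rik (chr1:52953301-52953600, minus strand): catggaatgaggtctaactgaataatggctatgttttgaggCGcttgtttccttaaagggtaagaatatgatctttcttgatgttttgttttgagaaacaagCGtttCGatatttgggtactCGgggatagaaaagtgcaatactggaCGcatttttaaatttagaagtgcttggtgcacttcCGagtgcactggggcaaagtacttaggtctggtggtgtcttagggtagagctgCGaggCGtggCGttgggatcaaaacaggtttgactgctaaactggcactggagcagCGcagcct
Phf24 (chr4:42916356-42916655, plus strand): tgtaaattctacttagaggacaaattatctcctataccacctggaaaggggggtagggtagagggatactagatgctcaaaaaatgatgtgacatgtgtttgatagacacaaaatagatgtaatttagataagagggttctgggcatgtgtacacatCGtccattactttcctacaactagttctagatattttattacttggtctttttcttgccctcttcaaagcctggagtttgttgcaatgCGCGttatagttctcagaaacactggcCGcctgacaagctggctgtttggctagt
Gm884 (chr11:103614690-103614989, minus strand): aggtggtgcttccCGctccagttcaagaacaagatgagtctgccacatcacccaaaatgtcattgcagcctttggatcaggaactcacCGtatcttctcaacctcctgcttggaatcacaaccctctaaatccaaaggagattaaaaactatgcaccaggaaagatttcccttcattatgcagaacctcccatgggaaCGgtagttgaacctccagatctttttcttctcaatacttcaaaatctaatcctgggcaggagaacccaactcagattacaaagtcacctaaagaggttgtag
Filip1 (chr9:79830933-79831232, minus strand): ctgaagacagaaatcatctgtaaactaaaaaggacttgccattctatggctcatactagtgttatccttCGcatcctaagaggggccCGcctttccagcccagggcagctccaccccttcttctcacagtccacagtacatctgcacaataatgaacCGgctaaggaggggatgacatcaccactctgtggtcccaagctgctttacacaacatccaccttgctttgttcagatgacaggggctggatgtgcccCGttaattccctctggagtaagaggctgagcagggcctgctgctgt
Hoxb8 (chr11:96281655-96281954, plus strand): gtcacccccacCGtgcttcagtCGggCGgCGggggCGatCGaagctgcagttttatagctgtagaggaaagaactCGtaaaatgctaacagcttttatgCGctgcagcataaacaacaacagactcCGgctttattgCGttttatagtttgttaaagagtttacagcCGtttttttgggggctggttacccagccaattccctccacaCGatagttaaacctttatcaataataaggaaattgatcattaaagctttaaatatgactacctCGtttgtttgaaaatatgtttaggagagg
Hivep3 (chr4:119814428-119814727, plus strand): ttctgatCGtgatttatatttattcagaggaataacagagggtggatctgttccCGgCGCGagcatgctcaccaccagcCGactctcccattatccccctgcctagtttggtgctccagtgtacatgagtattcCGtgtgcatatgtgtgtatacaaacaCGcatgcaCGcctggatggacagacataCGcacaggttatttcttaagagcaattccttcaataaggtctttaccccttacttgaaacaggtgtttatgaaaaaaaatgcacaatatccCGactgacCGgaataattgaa
Fam169a (chr13:97071393-97071692, plus strand): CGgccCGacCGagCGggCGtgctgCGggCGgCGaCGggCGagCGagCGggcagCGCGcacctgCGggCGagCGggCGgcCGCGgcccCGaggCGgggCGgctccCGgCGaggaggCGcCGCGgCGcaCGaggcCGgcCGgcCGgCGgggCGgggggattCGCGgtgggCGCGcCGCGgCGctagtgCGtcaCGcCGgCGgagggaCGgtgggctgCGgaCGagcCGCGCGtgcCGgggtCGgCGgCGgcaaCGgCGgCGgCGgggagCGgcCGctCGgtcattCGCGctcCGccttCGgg
Cacna1d (chr14:30353437-30353736, minus strand): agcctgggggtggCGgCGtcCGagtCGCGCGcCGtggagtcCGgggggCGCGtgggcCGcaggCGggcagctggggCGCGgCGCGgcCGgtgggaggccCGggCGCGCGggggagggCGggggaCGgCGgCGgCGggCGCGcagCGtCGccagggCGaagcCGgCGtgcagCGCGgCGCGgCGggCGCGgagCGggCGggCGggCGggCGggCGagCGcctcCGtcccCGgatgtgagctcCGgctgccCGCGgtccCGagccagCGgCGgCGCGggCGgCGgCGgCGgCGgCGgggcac
The first 4 windows each touched a region marked in 2 control and 2 dnTCF4 libraries, counted over the whole region. They held 10, 4, 3 and 4 CpG dinucleotides, with ratios of 0.733, 0.327, 0.212 and 0.205. Fewer libraries often had a peak on the window itself. The 1700019D03Rik window had one in dnTCF4 1 only, and the Phf24 window in controls 3 and 4 and dnTCF4 1 and 3. The Gm884 window had one in control 4 and dnTCF4 1 and 3, and the Filip1 window in control 3 and dnTCF4 1. Hoxb8, a homeobox gene of the anterior-posterior axis, and Hivep3, a zinc finger gene, each had a window touching a region marked in 1 control and 1 dnTCF4 library, with 13 and 11 CpG dinucleotides. On the window itself, Hoxb8 had a peak in control 4 and dnTCF4 1, and Hivep3 in control 3 only. The unmarked internal starts of Fam169a and of Cacna1d, a gene for an L-type calcium channel subunit, held 67 and 63 CpG dinucleotides. Their ratios, 1.29 and 1.18, were picked as the highest, and the genes held 13 and 19 short regions. Across genes with at least 10 short regions, 34 of 99 untouched windows of the gene's own starts (34.3%) had a ratio of at least 0.6, beside 593 of 1910 (31.0%) for all untouched windows at a host gene's own start.

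The number of short intragenic regions marked in a library followed the length of its list. Controls 1 to 4 marked 21, 61, 9492 and 3094 of them, and dnTCF4 1 to 4 marked 3018, 10, 451 and 132. The 2 groups overlapped over almost their whole range. The geometric means were 440 and 206, a log10 difference of −0.33 for dnTCF4 against control (two-sided exact permutation test, n = 4 and 4, p = 0.714), and leaving out control 3 or dnTCF4 2 turned the direction, to 0.096 and 0.11. As a share of a library's peaks on the same chromosomes, the regions held 13.1%, 20.7%, 31.0% and 29.0% of the control peaks, and 27.5%, 10.0%, 24.8% and 17.7% of the dnTCF4 peaks. For the shortest list, dnTCF4 2, the exact 95% Clopper-Pearson interval was 4.90% to 17.6%, and for the longest, control 3, 30.5% to 31.5%, which covers counting error only. The mean share was 23.4% ± 8.20 (SD, n = 4) in controls and 20.02% ± 7.85 (SD, n = 4) in dnTCF4, a difference smaller than either spread (exact permutation test, p = 0.571). Adjusted over the 7 comparisons of the groups made here, every p was 0.771.

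**Figure D1:**
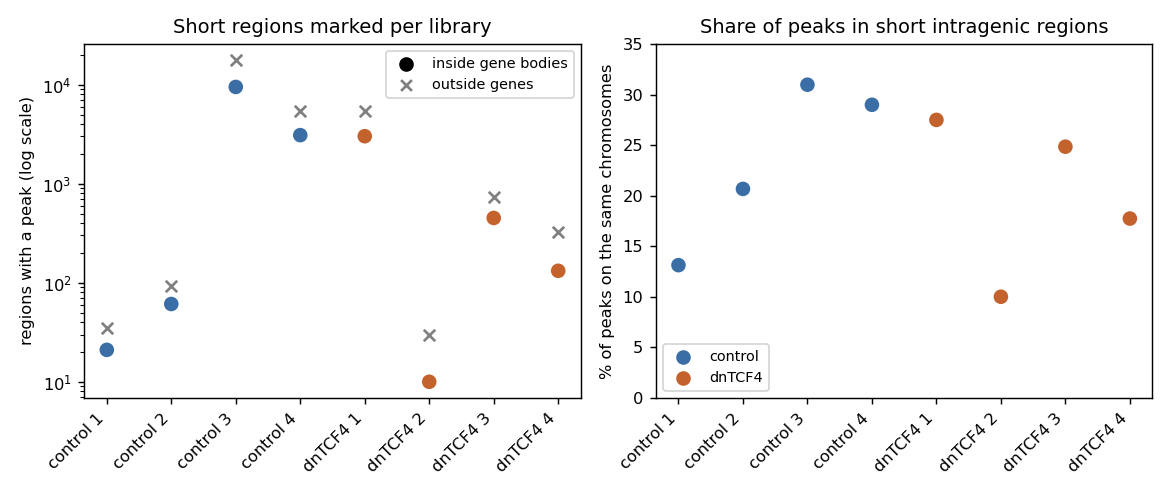
Short regions inside gene bodies by library. The left panel gives the number marked on a log scale, with short regions outside genes as grey crosses, and the right panel gives the percent of each library's peaks on the same chromosomes that lie in them (blue, control; orange, dnTCF4). Control values span 13.1% to 31.0% and dnTCF4 values 10.0% to 27.5%, so the groups overlap.

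Short regions were slightly sparser inside genes than outside them. Gene interiors on these chromosomes spanned 624 Mb, or 37.2% of the chromosomes, and the ground more than 2 kb from any protein-coding gene spanned 956 Mb and held 20243 short regions. The log2 ratio of regions per Mb, inside over outside, was −0.12, 0.023, −0.28 and −0.18 in controls 1 to 4 and −0.24, −0.97, −0.086 and −0.67 in dnTCF4 1 to 4. It was below 0 in 7 of 8 libraries, with a mean of −0.32 ± 0.34 (SD, n = 8; two-sided exact sign-flip permutation test, p = 0.0156, adjusted over 3 such ratios 0.0234). The call was lost when a block of chromosome 9 between 7 and 8.5 Mb was left out (mean −0.14, permutation p = 0.125). The block held between 0 and 15 of the short intragenic regions marked in a library. Leaving those out can only lower the ratio, so its rise came from short regions outside genes, whose number in the block is not given here. The ratio differed by −0.35 between dnTCF4 and control (exact permutation test, n = 4 and 4, p = 0.200).

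The height of the peaks hardly differed between inside and outside. The median fold enrichment, the authors' own value for each peak, was 3.01 inside and 3.00 outside in control 3, 3.40 and 3.40 in control 4, and 3.50 and 3.49 in dnTCF4 1. The log2 ratio of the medians lay between 0.000057 and 0.049 in 7 libraries and was 1.06 in dnTCF4 2, where 10 short intragenic regions had a median of 5.01 against 2.41 for 30 outside genes. It was above 0 in 8 of 8 libraries, with a mean of 0.15 ± 0.37 (SD, n = 8; exact sign-flip permutation test, p = 0.00781, adjusted 0.0234). Without dnTCF4 2 the mean was 0.016, without control 3 it was 0.034, and without the chromosome 9 block it was 0.0059 (permutation p = 0.273).

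Most short intragenic regions were seen in 1 library. That held for 7300 of them (67.4%), and 6088 (56.3%) were in control 3 alone. A further 2085 were marked in 2 libraries, 1064 in 3, 288 in 4, 60 in 5, 18 in 6, 7 in 7, and 1 in all 8. The share marked in at least 5 libraries was 0.795%, against 2.03% of all merged regions and 0.914% of short regions outside genes. All merged regions include those of 5000 bp or more, which the rule leaves out. Among short intragenic regions, the median length rose from 390 bp in 1 library to 1854 bp in 4, so the length limit itself lowers the share. The lists were largely nested. Every region marked in control 1, control 2 or dnTCF4 2 was also marked in control 3, as were 93.6% of those of dnTCF4 3, 93.2% of dnTCF4 4, 77.5% of control 4 and 75.9% of dnTCF4 1. The lists of similar length, control 4 and dnTCF4 1, shared 1428 regions, which were 46.2% of the one and 47.3% of the other. Within dnTCF4 1, peaks in regions also marked in a control were wider than the others, with medians of 468 and 274 bp, while their fold enrichments were close, at 3.51 and 3.43. Since an overlap of 1 base merges peaks, a wider peak is more likely to count as shared, so the widths only describe the lists.

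The most recurrent short regions were found at similar heights in both groups. The region in Myo1h, an unconventional class I myosin gene (chromosome 5, 114289253 to 114364576), covered 114297708 to 114300312, 8.46 kb from the gene start. Its fold enrichments were 5.004, 4.65, 4.66 and 4.03 in controls 1 to 4 and 5.11, 5.69, 3.93 and 4.66 in dnTCF4 1 to 4. It was marked in all 8 libraries, and the groups overlapped. The other 6 regions below were each marked in 7 libraries and lacked a peak in 1 of the 3 shortest lists.

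Klb encodes beta-Klotho, a co-receptor for endocrine fibroblast growth factors. Its region (chromosome 5, 65365534 to 65369303, in the gene at 65348411 to 65386957) had folds of 4.99, 5.11, 3.33 and 4.18 in controls and 4.43, no peak, 4.44 and 6.36 in dnTCF4 1 to 4. In Afp, the alpha-fetoprotein gene of fetal liver, the region (chromosome 5, 90495757 to 90500475, gene at 90490714 to 90508907) had 4.68, 4.75, 3.01 and 4.09 in controls and 4.50, no peak, 4.51 and 5.16 in dnTCF4. In Pax7, a transcription factor gene of muscle satellite cells, the region (chromosome 4, 139792785 to 139793173, gene at 139737059 to 139833530) had 5.23, 4.06, 3.24 and 2.87 in controls and 4.48, no peak, 4.53 and 3.64 in dnTCF4. Each of these 3 lacked a peak only in dnTCF4 2, the shortest list, and the folds of the groups overlapped.

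Rbfox3 encodes the neuronal splicing factor NeuN. Its region (chromosome 11, 118734631 to 118735302, gene at 118489760 to 118911597) lay 176 kb from the nearer end of the gene, with folds of 4.67, no peak, 5.86 and 3.48 in controls and 4.07, 4.92, 2.89 and 6.80 in dnTCF4. Abcc2 encodes an organic anion exporter of the liver, and its region (chromosome 19, 43828109 to 43830169, gene at 43782308 to 43838332) had no peak in control 1, then 4.97, 3.89 and 3.09, and 4.25, 6.14, 4.35 and 5.57 in dnTCF4. Lrrc15 encodes a leucine-rich repeat membrane protein, and its region (chromosome 16, 30279474 to 30280025, gene at 30269302 to 30283254) had no peak in control 1, then 5.15, 2.69 and 2.77, and 4.05, 4.97, 4.87 and 4.32 in dnTCF4. Each lacked a peak in 1 of the short control lists, 1 or 2, and the folds of the groups overlapped. The highest value came from 1 of the 4 shortest lists in all 3. The median fold in short intragenic regions ran from 3.01 in control 3, the longest list, to 5.01 in dnTCF4 2, the shortest.

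Regions in Kcnab2, Skap1 and Gsdma3 were marked in 6 libraries. Kcnab2 encodes a beta subunit of voltage-gated potassium channels and Skap1 an adaptor of T-cell receptor signalling, and both regions had peaks in controls 2, 3 and 4 and dnTCF4 1, 3 and 4. The Kcnab2 region (chromosome 4, 152416116 to 152416791) had folds of 6.08, 3.60 and 3.37 in those controls and 5.46, 4.40 and 6.52 in dnTCF4. The Skap1 region (chromosome 11, 96624700 to 96629067) had 5.38, 3.33 and 4.04 against 5.59, 3.71 and 6.82. In both, control and dnTCF4 folds overlapped.

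Single short intragenic regions could not be called by a test of control against dnTCF4. In Fisher's exact test on the number of libraries with a peak, the lowest p for any of the 10823 was 0.143, so 0 passed after Benjamini-Hochberg adjustment over all 61441 regions and 0 had an unadjusted p under 0.05. Among all merged regions, 0 passed after adjustment. The lowest unadjusted p, in 1 region, was 0.0286, the smallest that 4 libraries against 4 can give. That value needs a peak in all 4 libraries of 1 group, and the shortest lists held 426 peaks in control and 191 in dnTCF4. So few regions could not pass adjustment over 61441. The adjusted test was bound to call 0 and cannot show that the groups are alike. A peak in at least 2 control and 0 dnTCF4 libraries was found for 1032 short intragenic regions (9.54%), beside 9.84% of all merged regions. A peak in at least 2 dnTCF4 and 0 control libraries was found for 11 (0.102%), beside 0.216% of all merged regions. Both counts rest on single libraries: without control 3 they were 5 and 77, without control 4 they were 4 and 23, without dnTCF4 1 they were 2033 and 0, and without dnTCF4 3 they were 1066 and 3. With the 5 longest lists, 2 control and 3 dnTCF4, cut to their 1838 strongest peaks, the counts were 24 and 45, so their order turned.

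A region leaning toward controls by 3 libraries lay in Corin, the gene of a serine protease that activates atrial natriuretic peptide (chromosome 5, 72364048 to 72365537, gene at 72299948 to 72504540). Its folds were 4.57, 4.86, 3.43 and 3.53 in controls 1 to 4 and 3.00 in dnTCF4 1, with no peak in dnTCF4 2, 3 or 4 (Fisher's exact p = 0.143 before adjustment). Regions in Rorb, an orphan nuclear receptor gene, in Spag16, a gene of the sperm flagellum, and in Dnm3, a dynamin gene, were marked in controls 2, 3 and 4 and in no dnTCF4 library. Their folds in those controls were 4.64, 3.24 and 3.63 in Rorb, 5.16, 2.43 and 3.25 in Spag16, and 3.71, 3.19 and 3.37 in Dnm3. The region in Mmp12, a macrophage elastase gene, had the same pattern but folds of only 1.89, 1.41 and 1.47, and it lies in the chromosome 9 block. The region in Kif1a, a kinesin gene of axonal transport, was marked in 4 controls at 4.89, 4.81, 4.68 and 3.85 and in dnTCF4 1 and 3 at 4.36 and 4.61. No pattern could pass the test after adjustment, and all 6 include control 3 and control 4.

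The regions furthest toward dnTCF4 were marked in dnTCF4 1 in every case. A region in Bmp3, a gene of a bone morphogenetic protein (chromosome 5, 98861478 to 98862022, gene at 98854415 to 98884053), had folds of 5.43, 5.01 and 4.44 in dnTCF4 1, 3 and 4 and 4.18 in control 3. One in 4933424G06Rik had 5.86, 4.11 and 5.67 in the same dnTCF4 libraries and 4.91 in control 4. Regions in Akr1cl, an aldo-keto reductase gene, and in Scara5, a ferritin receptor gene, had peaks in dnTCF4 1 and 4 and in no control, with folds of 5.66 and 6.28, and of 4.48 and 4.47. One in Ptpru, a receptor tyrosine phosphatase gene, had 4.89 and 6.44 in dnTCF4 1 and 3. The region in Gsdma3, a gasdermin gene of skin (chromosome 11, 98636033 to 98636382), was marked in 4 dnTCF4 libraries at 3.44, 5.35, 4.20 and 6.77 and in controls 3 and 4 at 5.14 and 2.91. Their unadjusted Fisher p-values lay between 0.429 and 0.486.

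Short intragenic regions came in clusters along their genes. The median gap to the nearest other region of any kind was 1546 bp, 79.6% had a neighbour within 5 kb, and 251 (2.32%) had none within 50 kb. The same measures outside genes were 1648 bp and 77.3%. Of 11698 genes with an interior, 1922 (16.4%) held a short region. The 298 genes with at least 10 held 6084 of the regions (56.2%), and 593 genes held 1 each. Since genes can overlap, 109 regions lay in more than 1 gene. Genes with a region had a median length of 48.1 kb, against 21.8 kb for those without.

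Density fell with depth into the gene. Between 2 and 5 kb from the nearer gene end there were 19.99 regions per Mb, between 5 and 10 kb 22.1, between 10 and 20 kb 20.8, and between 20 and 50 kb 20.6. Further in, it was 16.0 between 50 and 100 kb, 10.3 between 100 and 200 kb, and 5.88 beyond 200 kb. In these pooled values, to which control 3 contributed most regions, the decline began past about 50 kb. In dnTCF4 1 the density had already fallen from 6.94 per Mb at 10 to 20 kb to 5.51 at 20 to 50 kb, and in dnTCF4 3 from 1.204 at 5 to 10 kb to 0.835 at 20 to 50 kb. Only longer genes contribute to the deeper bins. By gene length, there were 21.2 regions per Mb in genes under 20 kb, 19.5 from 20 to 50 kb, 23.1 from 50 to 100 kb, 19.6 from 100 to 300 kb, and 10.2 in genes over 300 kb. For the 8410 regions (77.7%) in genes of known strand, density was 23.8 per Mb in the first 10% of the gene after its start and 15.2 in the last 10%. The share of a library's short intragenic regions lying more than 50 kb from the nearer end was 9.52%, 16.4%, 25.03% and 21.9% in controls and 16.7%, 20%, 13.7% and 15.2% in dnTCF4, with means of 18.2% ± 6.80 and 16.4% ± 2.68 (SD, n = 4 each; exact permutation test, p = 0.657). This last comparison was chosen after the data were seen, and without control 3 its direction turned, from −1.82 to 0.53 percentage points.

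**Figure D2:**
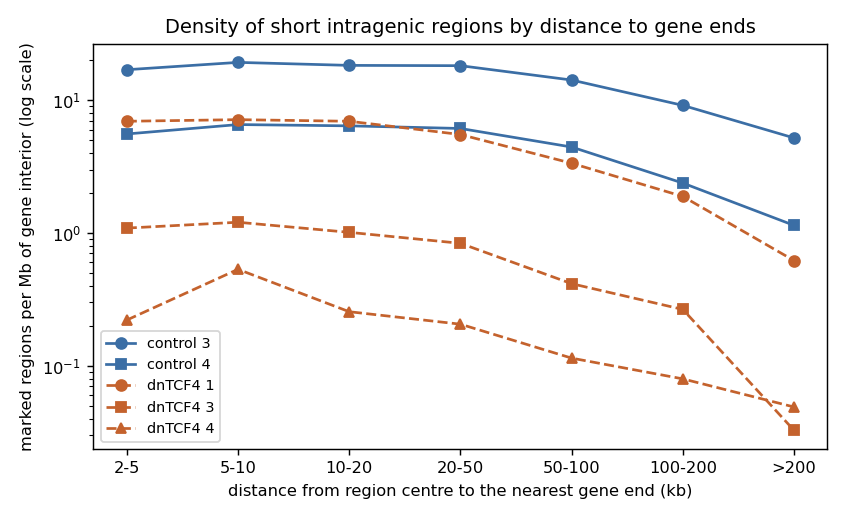
Short intragenic regions per Mb of gene interior, on a log scale, by distance from the region's centre to the nearest gene end in kb. Each line is 1 of the 5 longest lists (blue, control; orange, dnTCF4), and in each the deepest bin is the lowest.

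Genes with a peak at one of their ends were more densely filled with short regions than other genes. Of 1762 genes with a peak of any list within 2 kb of an end, 64.5% held a short intragenic region, at 65.5 per Mb. Of the 9936 other genes, 7.91% did, at 6.68 per Mb. In genes under 50 kb the densities were 101.7 and 6.61 per Mb, and in genes of 50 kb or more 58.8 and 6.70. Counted within each library, the log2 ratio of density between genes with and without a marked end was 5.60, 3.24 and 3.48 in controls 2, 3 and 4 and 3.29, 3.75 and 2.84 in dnTCF4 1, 3 and 4. Control 1 and dnTCF4 2 had 0 short regions in such genes and gave no ratio, and the value of control 2 rests on 5 regions. The mean of the 6 ratios was 3.70 ± 0.98 (SD). No test is given, since the libraries without a ratio lack one because of their own counts: their 21 and 10 short regions all lay in other genes, with only 23 and 9 genes marked at an end. The split by gene end was also chosen after the data were seen.

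**Figure D3:**
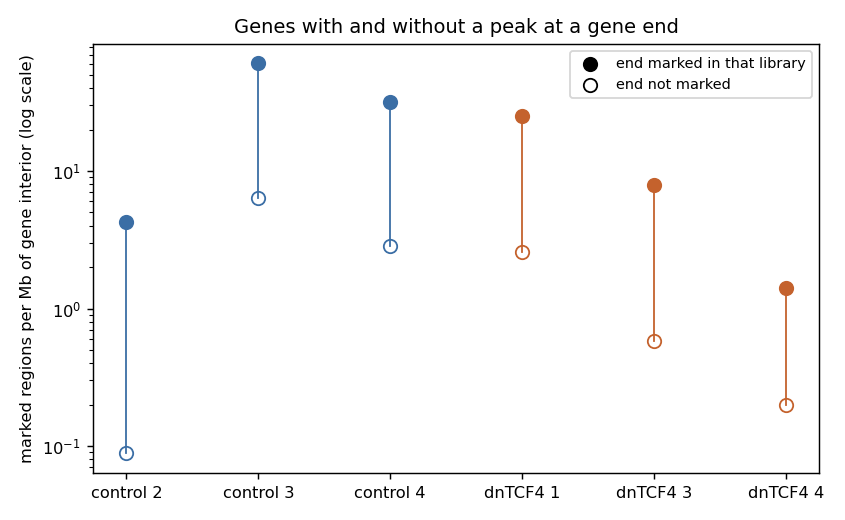
Short intragenic regions per Mb of gene interior, on a log scale, in 6 libraries. Filled points are genes with a peak within 2 kb of an end in that library, open points are all other genes, and the line joins the values of 1 library. The filled point lies above the open one in each of the 6, and control 1 and dnTCF4 2, with 0 short regions in genes with a marked end, are not drawn.

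The 8 genes with the most short regions were between 228 and 1528 kb long. Lhfpl3, a gene of the tetraspan LHFPL family (chromosome 5, 22746054 to 23275597), held 123, with 0, 1, 109 and 56 marked in controls 1 to 4 and 17, 0, 6 and 2 in dnTCF4 1 to 4. Peaks of control 3 covered 27.5% of the gene's interior, those of control 4 covered 9.24% and those of dnTCF4 1 covered 3.92%. They were spread over the gene in controls 3 and 4 and sat toward its far end in dnTCF4. In the first 400 kb from the gene start, controls 3 and 4 had 85 and 42 peaks in short regions and dnTCF4 1 to 4 had 2, 0, 0 and 0, while beyond 400 kb the values were 26 and 19 against 15, 0, 6 and 2. Controls 1 and 2, with 0 peaks in the first 400 kb, overlapped the dnTCF4 libraries, and the boundary was chosen after the map was seen, so no test was made.

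Spag16 followed with 86 short regions over 898 kb, then Rbfox1, a neuronal splicing factor gene, with 68 over 1528 kb, Iqschfp with 63, Gm11639 with 62, Trpm3, a cation channel gene, with 59, and Hecw1, a ubiquitin ligase gene, and Schip1 with 58 each. Iqschfp and Schip1 overlap on chromosome 3, so they share regions. Hecw1 (chromosome 13, 14226438 to 14523289) had the highest coverage of its interior among the 8 genes in control 3, 30.4%, with 8.96% in control 4 and 8.99% in dnTCF4 1. Its short regions numbered 0, 0, 55 and 24 in controls and 29, 0, 3 and 0 in dnTCF4, and 28 of the 58 (48.3%) were marked in both groups. In Lhfpl3 that share was 13.0% and in Spag16 4.65%, beside 22.9% of all short intragenic regions and 25.4% of all merged regions. The 3 genes thus differed in how far control 4 and dnTCF4 1, lists of similar length, marked them: 24 and 29 regions in Hecw1, 56 and 17 in Lhfpl3, and 17 and 6 in Spag16.

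**Figure D4:**
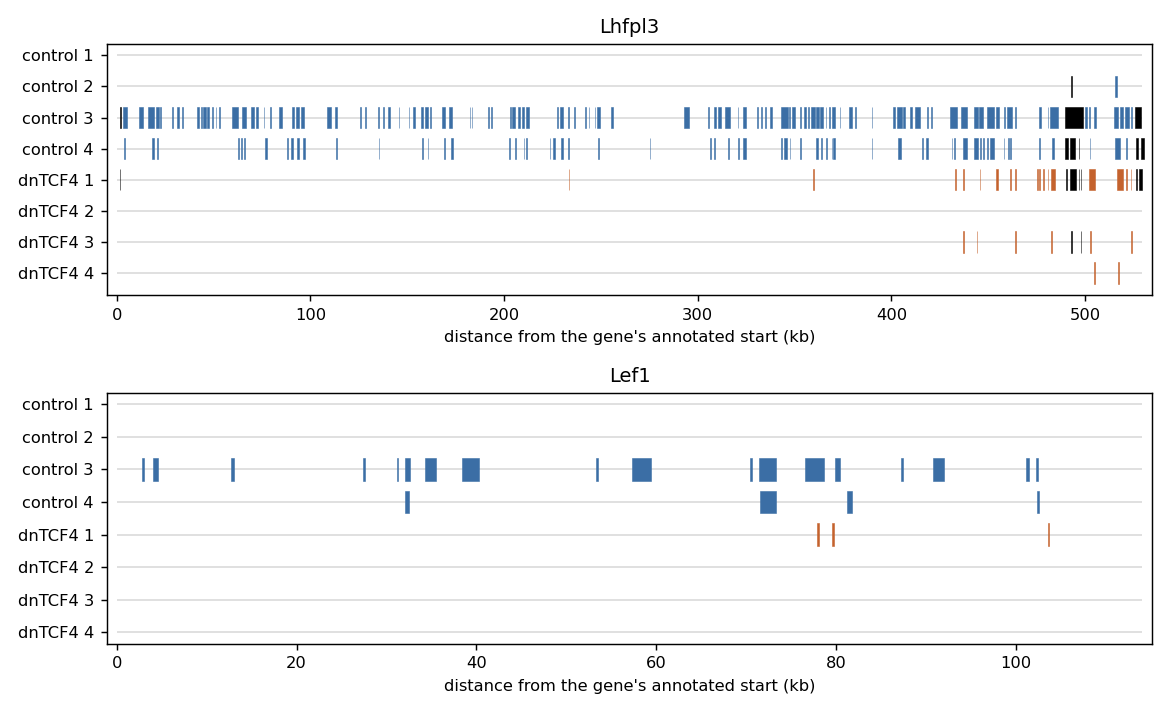
Peaks along Lhfpl3 and Lef1, with distance from the annotated gene start in kb on the horizontal axis and 1 row per library. Coloured bars are peaks in short intragenic regions, and black bars are peaks in regions of 5000 bp or more or within 2 kb of a gene end. In Lhfpl3, most dnTCF4 peaks lie beyond 400 kb, as do the peaks of control 2. Of the 17 peaks of dnTCF4 1 in short regions, 15 fall there.

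By gene list, densities ranged from 52.1 to 0 short regions per Mb of interior, beside 17.3 per Mb and 16.4% of genes with a region over all genes. Epithelial genes were at the top with 52.1 per Mb and a region in 9 of 22 genes. Per library the density was 38.6 in control 3, 15.4 in control 4 and 19.3 in dnTCF4 1. Shroom3, which shapes epithelial apices, held 22, Esrp1, an epithelial splicing factor, held 10, and Dsp, the desmosomal gene desmoplakin, held 8. Esrp1 had 0, 0, 9 and 4 in controls and 2, 0, 0 and 0 in dnTCF4. Between control 4 and dnTCF4 1, lists of similar length, the counts were 5 and 8 in Shroom3 and 3 and 3 in Dsp. Peaks of any length covered 4.23% of the interior of Esrp1 in control 4 and 9.87% in dnTCF4 1, the other order than its counts. Mesenchymal genes had 2.71 per Mb, with 1 region each in Col3a1, Postn and Prrx1 of 20 genes. Large genes active in most cells had 2.04 per Mb, in Lrba and Macf1 only of 24, and ribosomal protein and housekeeping genes had 0 regions in 17 genes, whose interiors add up to only 0.174 Mb. By density, the epithelial and mesenchymal lists therefore lay on opposite sides of the value over all genes. They did so under every processing alternative that gave both a value. Several of these alternatives left the log2 ratios to all genes unchanged, at 1.59 and −2.68, and so add no separate check. By share of genes with a region, epithelial genes had 40.9% and mesenchymal genes 15%, the latter close to the 16.4% over all genes. The low mesenchymal density rests on 3 regions, and Shroom3, Esrp1 and Dsp held most of the 54 epithelial regions.

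Wnt ligands, receptors and inhibitors had 35.5 regions per Mb, in 12 of 38 genes. Ror2, a receptor for Wnt5a, held 15, with 9 and 6 in controls 3 and 4 and 4 in dnTCF4 1. The ligand genes Wnt3a and Wnt9b held 12 each, with 12 and 2 in controls 3 and 4 and 4 in dnTCF4 1 for Wnt3a, and 9 and 6 against 6 for Wnt9b. Beta-catenin partners and targets had 15.2 per Mb, in 2 of 21 genes. These were Lef1, a nuclear partner of beta-catenin, and Pygo1, a co-activator that held 4. Of 16 genes tied to the study's question, Lef1 alone held any. Its 21 short regions (gene at chromosome 3, 131110297 to 131224357) were marked 0, 0, 18 and 4 times in controls and 3, 0, 0 and 0 times in dnTCF4. Peaks covered 13.0% of the interior of Lef1 in control 3, 2.87% in control 4 and 0.506% in dnTCF4 1. Only the 3 longest lists had a region in Lef1.

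Collagen and matrix genes had 29.8 per Mb in 13 of 26 genes, led by Tnr, a brain matrix glycoprotein gene, with 45, Col4a3, a basement membrane collagen gene, with 32, and Col26a1 with 30. Developmental transcription factor genes had 24.97 per Mb in 23 of 40 genes, led by the homeobox genes Cux2 with 35 and Lmx1a with 30, then Rorb with 25. Voltage-gated channel genes had 18.7 per Mb in 17 of 25, with 37 in Kcnma1, 24 in Cacna1e and 19 in Cacna1d. Axon guidance genes had 11.2 per Mb in 14 of 28, with 29 in Sema5b, 27 in Slit1 and 23 in Slit3. Receptor tyrosine kinases had 8.58 per Mb in 8 of 29, synaptic adhesion genes 8.56 in 17 of 34, cadherins and protocadherins 6.26 in 4 of 17, and glutamate, GABA and glycine receptor genes 2.21 in 10 of 30. The lists were not matched for gene length. Median length was 800 kb in synaptic adhesion, 368 kb in channel, 239 kb in glutamate, GABA and glycine receptor and 219 kb in axon guidance genes. Over all genes with an interior it was 24.6 kb. Genes over 300 kb had 10.2 regions per Mb, and 43.6% of them held a region. The collagen, beta-catenin, channel and study lists lay on the other side of the value over all genes under at least 1 alternative.

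**Figure D5:**
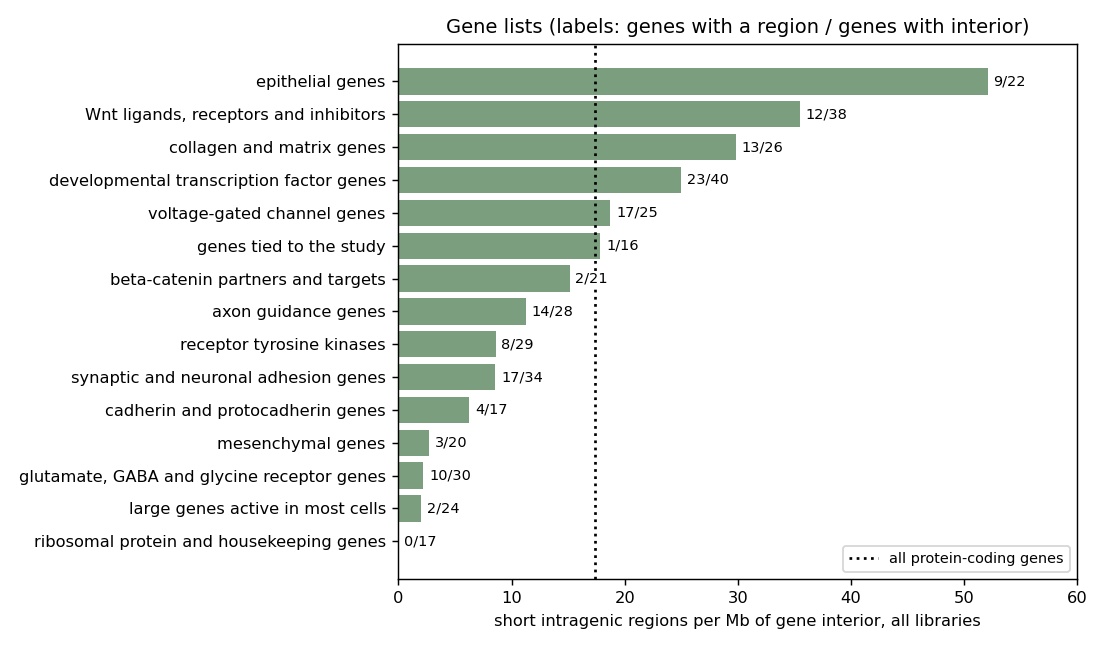
Short intragenic regions per Mb of gene interior for each gene list, with the number of genes holding a region over the number with an interior beside each bar. The dotted line is the value over all genes, 17.3 per Mb. Epithelial genes reach 52.1 and mesenchymal genes 2.71.

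Chromosomes differed in how densely gene interiors were marked, from 8.87 regions per Mb on chromosome 14 to 33.4 on chromosome 19. Outside genes these chromosomes had 8.68 and 51.2 short regions per Mb, which were also the lowest and highest of the 13.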

How the data were processed

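H3K27me3 ChIPmentation was analysed in 4 control and 4 dnTCF4 libraries, and the 8 IgG samples were not analysed here. The authors' deposited peak lists give, per library, a score, a fold enrichment and −log10 p and q values for each peak. Per the submitters' processing notes, the tools included Bowtie2 2.3.4.1 and MACS2 2.1.2 with build mm10, while neither their settings nor any use of IgG is given in the sources used here. Peaks overlapping by at least 1 base were merged. Gene positions, promoter windows (none on chromosome 18) and strand came from RefSeq GRCm38.p6. No genome sequence or exon positions were used, so the sequence of the regions and their place in exons or introns are not analysed here. Peak lists hold no counts, so groups were compared by exact permutation over the 70 assignments of libraries, ratios by exact sign flips, and regions by Fisher's exact test with Benjamini-Hochberg adjustment (Python 3.11.15, scipy 1.17.1). The statistics were tested on simulated data. Named regions were the 10 marked in most libraries and the 6 leaning furthest to each group, ties going to the higher mean fold, 1 per gene. Named hosts were the 8 genes with most regions, up to 3 per list and the study genes with a region. The regions and all 15 gene lists were chosen with earlier results of these data known.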

Additional observations from a re-analysis of the deposited data

Results flagged for a closer look

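The log2 ratio of median fold enrichment between short regions inside and outside genes was 1.06 in dnTCF4 2, far from the other 3 dnTCF4 libraries. The gap to its nearest neighbour was 0.974 of the group's range. It was the only value set apart in this way among 10 groups of libraries examined, and chance sets apart about 1 group in 20. The value rests on 10 short regions inside genes and 30 outside. None of the 10 lay in the chromosome 9 block. Without that block the mean over the 8 libraries fell from 0.15 to 0.0059, and the value of dnTCF4 2 alone is not given here.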

How the results depend on the processing

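The peak lists differ so much in length that single libraries set the region counts, and depth behind the lists is unknown, so a missing peak cannot be read as a missing mark. With 5 lists or 4 pairs no sign-flip test can reach p under 0.05. A call lost with lists of equal length, with lists of at least 1000 peaks or with the replicate block is therefore read from the ratio itself. The fold ratio nearly vanished with equal lists (exact sign-flip permutation p = 0.938) and was small with lists of at least 1000 peaks, settings that leave out dnTCF4 2. The inside against outside density ratio stayed below 0 under each alternative, reached −0.72 when peaks had to cover 50% of a region, and lost its call with lists of equal length (−0.26), with lists of at least 1000 peaks (−0.29), with the replicate block (−0.32, exact permutation p = 0.125) and without the chromosome 9 block (−0.14). The fold ratio stayed above 0 and lost its call at −log10 q of at least 2 (0.068), with equal lists (0.00099), for regions under 2000 bp (0.016), with lists of at least 1000 peaks (0.0091), with the replicate block (0.15, exact permutation p = 0.125) and without the chromosome 9 block (0.0059). The ratio by marked gene end, given without a test, was 3.71 with equal lists, 3.32 with longer lists and 3.89 with the replicate block, and ranged from 3.32 to 4.60 leaving out 1 library.

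The count leaning to controls was 110 at the stricter q, 24 with equal lists, 634 when peaks had to cover 50% of a region, and 4 to 2033 leaving out 1 library. The count leaning to dnTCF4 was 7, 45 and 14 there, 6 for regions over 10 kb from gene ends, and 0 to 77 leaving out 1 library. The log10 group difference in number ranged from −0.77 to 0.11 leaving out 1 library. The share over 50 kb from gene ends turned to 2.18 percentage points at the stricter q, was −26.4 at 50% cover, −8.27 with longer lists and −4.91 with equal lists, and ranged from −4.71 to 0.53 leaving out 1 library. For other gene-end, length and gap settings, none of these directions turned. In these fits the cause was not tested. Same-numbered control and dnTCF4 libraries correlated at −0.037, 0.092, 0.15 and −0.24 in their deviations, so the numbers were not taken as pairs. The replicate block gave an exact permutation p of 0.875 for the number of regions, 0.625 for the share of peaks and 0.750 for the deep share.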
